A study of Mus musculus with 12 samples.

Results

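The comparison described here sets cultured mouse bone marrow cells that carried Hoxa9 and full-length Meis1 (HOXA9+MEIS1) against cells that carried Hoxa9 and the empty MIY vector (HOXA9+MIY). The arrays were taken by these labels and by nothing measured on them: 4 arrays of each, 8 of the 12 arrays of the series. All cells came from the marrow of female C57B/6 mice of 12 weeks that had received 5-fluorouracil (5-FU), a drug that kills dividing marrow cells and so enriches for early progenitors. The labels describe progenitor cells in primary culture, transduced with MSCV retroviral constructs and grown in DMEM with 15% fetal calf serum and the cytokines IL3, SCF and IL6. Hoxa9, linked to GFP, was present in every sample, so that all differences below are those of Meis1 on top of Hoxa9. In each condition 2 arrays were from week 3 and 2 from week 4 of culture. The remaining 4 arrays, HOXA9+MDHD, carried Hoxa9 with a Meis1 that lacks its homeodomain, and they are used here only for the estimate of the spread and for values set side by side. One of them, HOXA9+MDHD week 4 replicate 2, stood apart from the other 3. Counts that rest on it are given with and without it, and values of single genes are with it unless said otherwise. Each condition's 4 experiments are labelled independent. Whether a culture gave both a week 3 and a week 4 array is not said, nor how many mice were pooled or whether transduced cells were sorted, and the p-values therefore measure the spread between these arrays.

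HOXA9 and MEIS1 are homeodomain transcription factors. MEIS1 belongs to the TALE class, binds DNA together with PBX proteins, and joins HOX proteins in complexes on DNA. Hoxa9 keeps myeloid progenitors dividing in culture, whereas Meis1 is known for shortening the time to leukemia when it is added to Hoxa9 in mice, and Flt3 is a long-known target of the pair. Myeloid progenitors mature through granule-making promyelocytes to neutrophils, or through monocytes to macrophages, and each step has its own set of surface receptors, granule proteins and lysosomal enzymes.

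Expression was read on an exon array, in which several probe sets read each gene. A gene value is a log2 value, the median polish over those of the gene's probe sets whose mean exceeded a filter level of 6.2592, which is the median over all probe sets, and 20711 genes had such a value. Over the probe sets any pair of arrays correlated at 0.9624 to 0.9823. The values of 4 arrays are given in the order week 3 number 1, week 3 number 2, week 4 number 1, week 4 number 2. Differences are HOXA9+MEIS1 minus HOXA9+MIY on the log2 scale, ± the standard error of the fit, and a gene was called, and is said to have risen or fallen, at a Benjamini-Hochberg adjusted p under 0.05 in limma over all genes tested. Hoxa9 was 13.35, 13.33, 13.22 and 13.26 in HOXA9+MIY and 13.46, 13.37, 13.39 and 13.27 in HOXA9+MEIS1, with no call (difference 0.081 ± 0.047, adjusted p = 0.372). Meis1 was 6.84, 6.80, 6.96 and 6.78 with the empty vector and 9.84, 9.76, 9.64 and 9.67 with the Meis1 vector, so that the labels held on every array. Its probe sets did not move alike: 16 of 18 were higher. The gene's difference was 2.88 ± 0.12 by median polish, 5.67 by the median of the probe sets and 5.72 under the stricter filter on dim probe sets. Kit, the SCF receptor that marks progenitors and mast cells, stood at 9.96 ± 0.13 (SD) and 10.32 ± 0.30 in HOXA9+MIY and HOXA9+MEIS1 (n = 4 each). For the T and NK genes the mean over the list was 7.37 to 7.45 on HOXA9+MIY arrays and 7.25 to 7.46 on HOXA9+MEIS1 arrays, with 0 of 15 called.

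With Meis1, 2244 of 20711 genes were called (10.8%), of which 1095 were higher (5.29%) and 1149 lower (5.55%). These are the shares over all genes beside which the counts of list members below stand. The median difference over all genes was -0.0055. Most called differences were small, with a median of 0.39 among those higher and -0.47 among those lower. At least 2-fold changes numbered 352, of which 122 were higher (0.589%) and 230 lower (1.11%). The large falls outnumbered the large rises further out as well: 16 genes rose over 4-fold and 63 fell over 4-fold, and 5 rose and 21 fell over 8-fold. Genes that rose at least 2-fold had a median level of 7.69 in HOXA9+MIY, below the 7.96 over all genes, and of 9.15 with Meis1. Genes that fell at least 2-fold went the other way, from a median level of 9.25 to 7.46. In 19 of those 230 the HOXA9+MEIS1 mean lay below the filter level, and for such a gene a lower bound of the fold, against the filter level, is given. The 4 arrays of one condition lay wholly above the 4 of the other in 1477 of the 2244 called genes, beside 2278 (11%) of all genes tested.

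**Figure D1:**
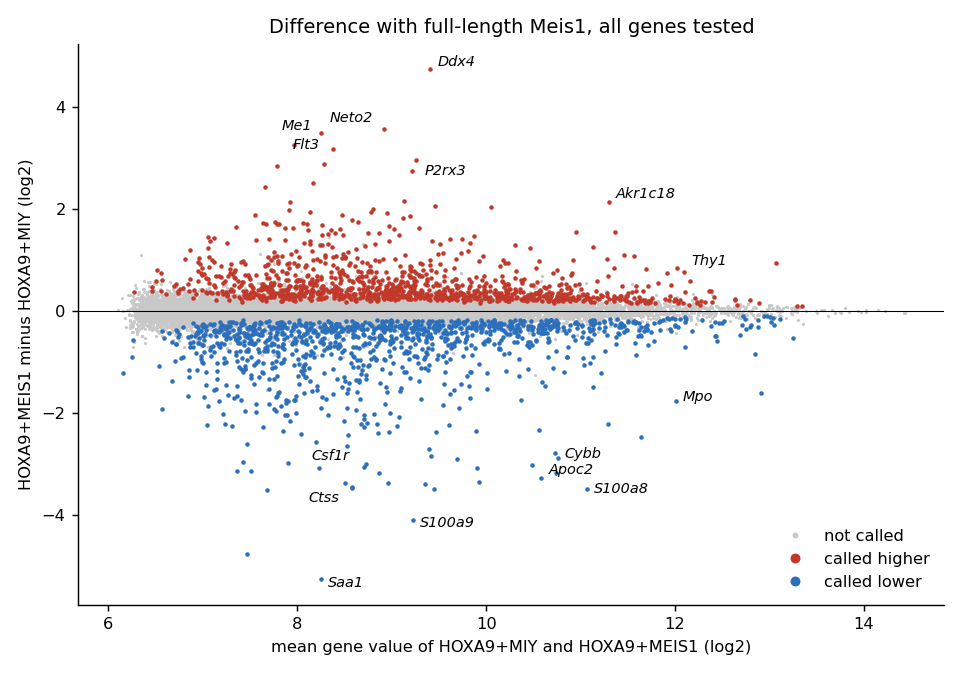
Each point is 1 of the 20711 genes, with the mean gene value of both conditions (log2) on the horizontal axis and HOXA9+MEIS1 minus HOXA9+MIY (log2) on the vertical axis. Red points are the 1095 genes called higher, blue points the 1149 called lower and grey points the rest; the blue cloud reaches further from 0 than the red one.

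The largest rise was that of Ddx4, the vertebrate homolog of the fly gene vasa, which encodes an RNA helicase of the germ line. Its values were 7.39, 7.49, 6.63 and 6.67 with the empty vector and 11.82, 12.03, 11.43 and 11.81 with Meis1. The groups lay far apart at both weeks, with a difference of 4.73 ± 0.43 (26.5-fold, adjusted p = 2.24e-05) and all 9 probe sets above the filter level higher. A probe set dim with the empty vector can pass that filter through its HOXA9+MEIS1 values, so the agreement of these 9 is a description. With dim probe sets kept in, the difference was 0.77 and still called. Of 35 germ cell genes measured, Ddx4 was the only member called, and the median over the list was -0.03. A further group of large rises encodes membrane proteins best known from neurons and epithelia. Neto2, an auxiliary subunit of kainate-type glutamate receptors, was 7.64, 7.88, 6.81 and 6.23 in HOXA9+MIY and 10.93, 10.80, 10.45 and 10.60 in HOXA9+MEIS1. Its difference was 3.55 ± 0.23 (adjusted p = 1.56e-06), and the empty-vector arrays were lower at week 4 than at week 3. Gria2, a subunit of AMPA-type glutamate receptors, went from 6.22, 6.07, 6.63 and 6.52 to 8.54, 8.70, 9.68 and 9.88, with the higher HOXA9+MEIS1 values at week 4 (difference 2.84 ± 0.29, adjusted p = 5.76e-05). These were the 2 of 19 ionotropic glutamate receptor genes that rose, and Gria3 fell (-0.68 ± 0.11). Of that list 15.8% was called, against 10.8% of all genes, and its median difference was -0.01.

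P2rx3, an ATP-gated cation channel of sensory neurons, was 8.01, 7.95, 7.61 and 7.54 with the empty vector and 10.94, 10.77, 10.66 and 10.56 with Meis1, a difference of 2.95 ± 0.24 (adjusted p = 9.35e-06) with no overlap. Of 16 P2X and P2Y receptor genes 8 were called (50%, against 10.8% of all genes). The risers were P2rx3, P2ry10 (1.51 ± 0.21) and P2ry2 (0.34 ± 0.062, named after its values were seen), and 5 fell, among them P2ry6 (-0.83 ± 0.12), P2ry14 (-1.05 ± 0.20) and P2ry13 (-1.54 at week 3), receptors for nucleotides and nucleotide sugars found on myeloid cells. On the week 4 arrays alone P2ry14 was at -0.69 and P2ry13 at -0.47, neither called. Aqp8, a water channel, was 6.21, 6.14, 6.64 and 6.41 with the empty vector and 10.64, 10.39, 8.31 and 9.02 with Meis1 (difference 3.24 ± 0.35, adjusted p = 7.79e-05). The Meis1 arrays were all above the others but split by week, with the week 3 pair the higher, and the week 4 arrays alone gave 2.14. Aqp9, an aquaglyceroporin of leukocytes, fell (-0.69 ± 0.12). Slc22a3, a transporter of organic cations, rose by 2.74 ± 0.19, from 7.69, 7.85, 7.92 and 7.91 to 10.61, 10.70, 10.43 and 10.59. Atp1b1, the beta subunit of the sodium pump, rose by 2.50 ± 0.17, whereas Atp1b4 of the same family fell (-0.27 ± 0.079), a small difference that lost its call in 16 of 22 other settings. Slc16a12, a monocarboxylate transporter, rose by 2.13 ± 0.21, and Kcng2, a modifier subunit of voltage-gated potassium channels, by 1.33 ± 0.088. Over all 87 potassium channel genes 6 rose and 5 fell (12.6% called, against 10.8% of all genes). On leaving out any single array other than HOXA9+MIY week 3 replicate 2, the fallers among the potassium channel genes numbered 1 to 3.

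Enzymes and signalling proteins made up much of the rest of the 25 largest rises. Me1, the cytosolic malic enzyme that makes NADPH, was 6.42, 6.62, 6.55 and 6.45 with the empty vector and 9.51, 9.65, 10.36 and 10.43 with Meis1, a difference of 3.47 ± 0.14 (adjusted p = 1.10e-07). All 23 of its probe sets were higher, although under the stricter filter the difference was 1.63. Akr1c18, which inactivates progesterone, went from 9.76, 10.09, 10.50 and 10.59 to 12.36, 12.06, 12.63 and 12.43 (2.13 ± 0.16). Gucy1a3, a subunit of the nitric oxide receptor guanylate cyclase, rose by 2.43 ± 0.20, Plcb4, a phospholipase C, by 1.74 ± 0.080, and the kinase gene Stk39, which regulates ion cotransporters, by 1.82 ± 0.13. Il12rb2, a subunit of the interleukin 12 receptor, was 8.52, 8.56, 8.21 and 8.41 in HOXA9+MIY and 10.63, 10.33, 10.46 and 10.51 in HOXA9+MEIS1 (2.06 ± 0.11, adjusted p = 4.75e-07). Rasgrp1 encodes an exchange factor that loads Ras with GTP. It was 8.02, 7.78, 7.91 and 8.24 and 9.15, 9.18, 10.49 and 10.79, with a rise of 1.91 ± 0.29 (adjusted p = 8.26e-04) in which the week 4 pair stood above the week 3 pair; the week 3 arrays alone gave 1.27. Among 26 genes of MAP kinase feedback and of the SOCS and PIM families 6 rose and 2 fell (30.8% called, against 10.8% of all genes). The risers included Spry2 (0.78 ± 0.090), a brake on receptor tyrosine kinase signalling. The fallers were Rasgrp4 (-0.88 ± 0.094) and Socs3 (-0.79 ± 0.11), a brake on IL6 signalling. Without the HOXA9+MEIS1 week 4 replicate 2 array 3 of the MAP kinase feedback, SOCS and PIM genes rose and 3 fell. The remaining large rises were Lypd6 (2.14 ± 0.27), Rcn3 (2.03 ± 0.34), Leprel1 (1.93 ± 0.14), Gpr176 (1.88 ± 0.23), Diras2 (1.87 ± 0.18), Ap1s2 (1.86 ± 0.17), Ctla2a (1.77 ± 0.19) and Susd5 (1.74 ± 0.33). Gpr176 was at 1.20 with the stricter filter, and Diras2 at 1.23 by the median of the probe sets.

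**Figure D2:**
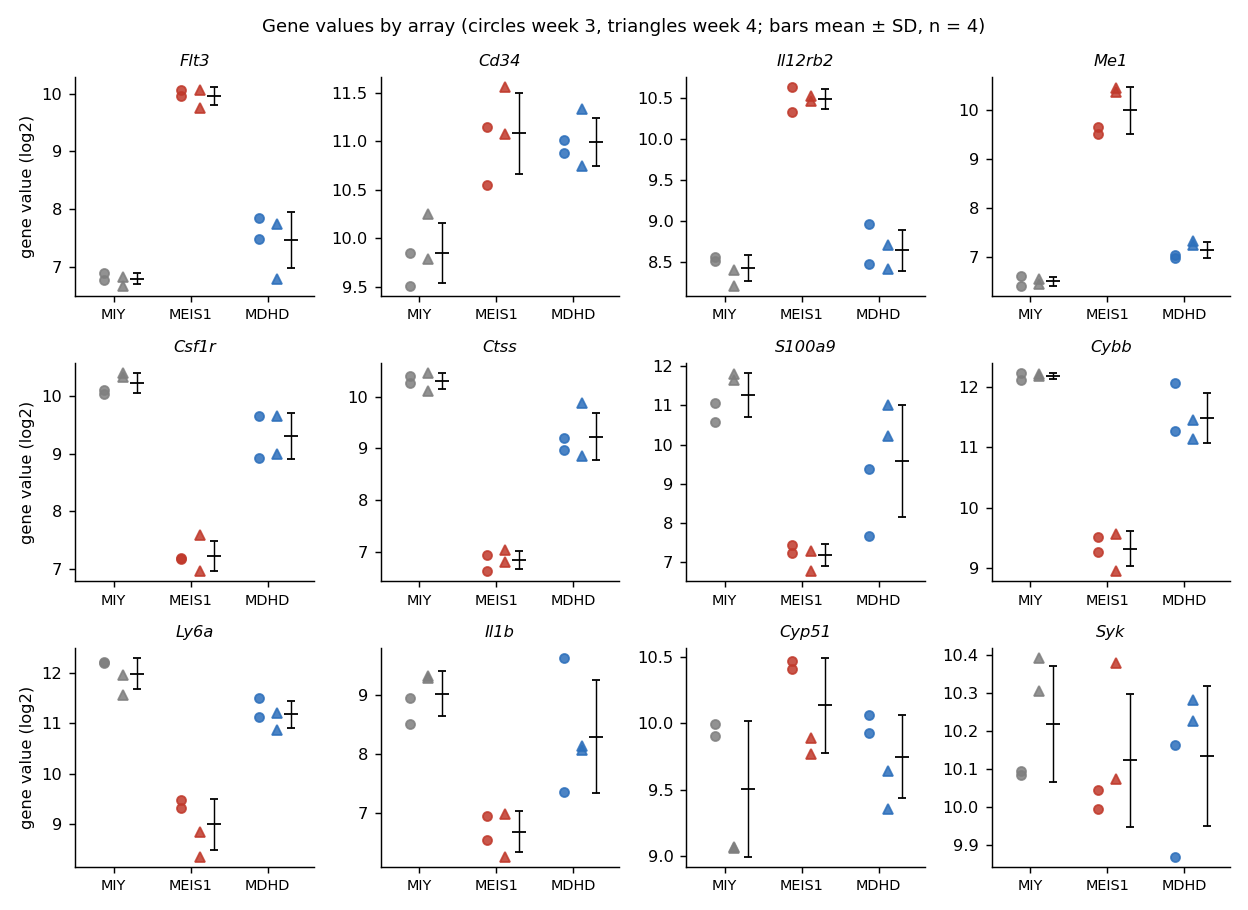
Gene values (log2, vertical axes, not started at 0) of 12 genes on each array of HOXA9+MIY (grey), HOXA9+MEIS1 (red) and HOXA9+MDHD (blue), circles for week 3 and triangles for week 4, with the mean ± SD (n = 4) in black beside each group. Flt3, Cd34, Il12rb2 and Me1 are higher and Csf1r, Ctss, S100a9, Cybb, Ly6a and Il1b lower on every HOXA9+MEIS1 array than on any HOXA9+MIY array; Cyp51 is higher within each week but overlaps across weeks, and Syk overlaps over the 4 arrays of each condition.

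The 250 bases before the start of transcription, as RefSeq gives them (GRCm38.p6), were searched for letters known from factors of this setting, together with the 50 bases after it. Of the 20711 genes 20655 matched RefSeq and 15922 had a promoter in the table. TGACAG, the hexamer of Meis proteins, was found on either strand in 16.7% of the promoters of genes that rose at least 2-fold (16 of 96), in 22.2% of those of genes that fell at least 2-fold (42 of 189) and in 18.1% of all (2881 of 15922). TGATTTAT, known from HOX and PBX pairs, was in 0 of 96 and 0 of 189 of these and in 0.678% of all. GAGGAAGT, known from the myeloid factor PU.1, was in 1.04% of promoters of the risers (1 of 96), in 7.94% of those of the fallers (15 of 189) and in 2.92% of all. TTGCNNAA, known from C/EBP factors, was in 10.4%, 16.9% and 9.50%. The searches are on both strands, no motif contains another, TTGCNNAA can share bases with the others, and a match is a match of letters. Of the 25 largest rises 23 had a promoter, of which 2 held the hexamer before the start, Slc22a3 and Rasgrp1. Of the 25 largest falls 17 had one, and 7 were found to hold it: Saa1, Saa3, S100a9, Mmp8, Klk1b1, Klk1b9 and Klk1b11. The Saa genes are close relatives of each other, as are the Klk1b genes, so the 7 are not separate cases. The shares over all genes take in the 50 bases after the start, and none was taken for the 250 bases alone. Promoters on 1 of the chromosomes were not searched for these counts of holders, but were not taken out of the 23 and 17. The 2 and the 7 are therefore minimum counts. The promoters of both risers, of the neutrophil genes S100a9 and Mmp8, and of 3 neighbouring kallikrein genes are shown as a selection. The kallikreins were taken because they hold the hexamer at similar distances from the start. The promoters of Saa1, the largest fall, and of Saa3 also hold it and are not shown. Capitals mark TGACAG or its reverse complement, CTGTCA, and each sequence runs 5′ to 3′ on the gene's strand up to the last base before the start.
Slc22a3 (chr17:12507705-12507954, minus strand): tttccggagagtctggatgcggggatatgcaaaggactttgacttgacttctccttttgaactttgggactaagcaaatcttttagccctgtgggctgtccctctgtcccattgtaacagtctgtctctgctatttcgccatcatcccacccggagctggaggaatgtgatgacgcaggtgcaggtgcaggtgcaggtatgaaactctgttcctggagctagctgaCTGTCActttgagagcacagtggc
Rasgrp1 (chr2:117342878-117343127, minus strand): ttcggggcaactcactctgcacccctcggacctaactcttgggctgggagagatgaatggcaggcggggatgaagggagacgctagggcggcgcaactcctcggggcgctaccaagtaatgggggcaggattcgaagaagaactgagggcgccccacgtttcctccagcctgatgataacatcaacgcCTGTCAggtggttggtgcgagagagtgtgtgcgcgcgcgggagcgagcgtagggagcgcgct
S100a9 (chr3:90695722-90695971, minus strand): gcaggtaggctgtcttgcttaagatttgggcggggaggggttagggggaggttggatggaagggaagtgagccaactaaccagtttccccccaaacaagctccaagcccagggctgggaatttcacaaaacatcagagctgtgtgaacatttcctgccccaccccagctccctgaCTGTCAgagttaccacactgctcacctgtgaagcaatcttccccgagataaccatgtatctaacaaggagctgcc
Mmp8 (chr9:7558179-7558428, plus strand): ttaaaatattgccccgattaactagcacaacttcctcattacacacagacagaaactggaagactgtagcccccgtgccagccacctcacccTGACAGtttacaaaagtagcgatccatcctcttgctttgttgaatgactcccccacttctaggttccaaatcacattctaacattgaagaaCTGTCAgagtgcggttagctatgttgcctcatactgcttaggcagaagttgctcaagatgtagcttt
Klk1b1 (chr7:43966501-43966750, plus strand): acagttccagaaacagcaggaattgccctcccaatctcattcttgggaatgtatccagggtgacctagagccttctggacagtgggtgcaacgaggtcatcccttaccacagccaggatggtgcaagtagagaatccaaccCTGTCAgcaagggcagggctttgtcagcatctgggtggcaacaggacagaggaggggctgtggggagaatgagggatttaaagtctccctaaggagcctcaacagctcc
Klk1b9 (chr7:43975811-43976060, plus strand): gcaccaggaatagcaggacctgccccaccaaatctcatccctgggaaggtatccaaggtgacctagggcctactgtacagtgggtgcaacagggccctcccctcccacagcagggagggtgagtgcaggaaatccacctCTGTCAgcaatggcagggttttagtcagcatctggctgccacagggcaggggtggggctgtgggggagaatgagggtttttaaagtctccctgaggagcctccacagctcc
Klk1b11 (chr7:43995627-43995876, plus strand): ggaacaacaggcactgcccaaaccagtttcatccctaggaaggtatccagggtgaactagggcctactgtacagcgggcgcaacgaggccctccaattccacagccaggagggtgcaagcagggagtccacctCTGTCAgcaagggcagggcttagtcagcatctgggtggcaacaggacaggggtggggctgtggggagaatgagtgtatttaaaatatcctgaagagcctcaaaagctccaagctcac

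The hexamer began 24 bases before the start in Slc22a3, 62 in Rasgrp1 and 75 in S100a9, and Mmp8 held 2 matches. In Klk1b1, Klk1b9 and Klk1b11 it began 109, 111 and 117 bases before the start. Mmp8 also held the reverse complement of GAGGAAGT, ACTTCCTC, which begins 221 bases before the start and is left in lower case above. S100a8, which lies near S100a9 and fell with it, is shown for GAGGAAGT, whose reverse complement is in capitals and begins 172 bases before the start.
S100a8 (chr3:90668821-90669070, plus strand): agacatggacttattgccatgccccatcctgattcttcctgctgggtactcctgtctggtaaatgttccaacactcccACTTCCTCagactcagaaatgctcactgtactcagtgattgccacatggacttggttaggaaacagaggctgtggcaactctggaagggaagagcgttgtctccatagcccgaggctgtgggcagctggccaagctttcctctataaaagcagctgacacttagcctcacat

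The factors known to read these letters were named after their values had been seen. Sfpi1, the gene of PU.1, was 11.69, 11.73, 11.66 and 11.57 in HOXA9+MIY and 11.29, 11.25, 11.23 and 11.24 in HOXA9+MEIS1, a difference of -0.41 ± 0.045 (adjusted p = 9.17e-05) with no overlap. Cebpb, of the C/EBP factors that act in macrophages, fell by a similar amount (-0.52 ± 0.083, adjusted p = 0.00132). Cebpa, needed for the step into the granulocyte line, was at 0.16 ± 0.070 (adjusted p = 0.201) and Cebpe, needed for secondary granules, at 0.45 ± 0.16 (adjusted p = 0.0986), neither called.

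Genes of stem and early progenitor cells were moved in both directions. Of 27 measured, 8 rose and 3 fell (40.7% called, against 10.8% of all genes). The median difference was 0.06 beside -0.0055 over all genes. Flt3, the receptor tyrosine kinase of early lymphoid and myeloid progenitors, was 6.77, 6.90, 6.82 and 6.67 with the empty vector and 9.96, 10.07, 9.74 and 10.07 with Meis1. The conditions were far apart at both weeks (difference 3.17 ± 0.17, adjusted p = 4.75e-07), and 29 of 30 probe sets were higher. Cd34, a surface sialomucin of progenitors, went from 9.51, 9.85, 9.78 and 10.25 to 10.55, 11.15, 11.08 and 11.56 (1.24 ± 0.18, adjusted p = 5.83e-04), and every Meis1 array was above every other. Angpt1, the ligand of the Tie2 receptor, rose by 1.59 ± 0.21. Thy1, on stem cells and several other lineages, went from 11.73, 11.58, 11.91 and 11.67 to 12.49, 12.46, 12.49 and 12.48 (0.76 ± 0.083, adjusted p = 8.64e-05), and Gata2, a factor of stem, mast and megakaryocyte cells, rose by 1.02 ± 0.21 (adjusted p = 0.00758). Erg, an ETS factor of stem cells and named after its values were seen, rose by 1.18 ± 0.10 (adjusted p = 1.56e-05), and Kit was not called (0.36 ± 0.16, adjusted p = 0.193). In the other direction, Ly6a, the gene of the stem cell antigen Sca-1, fell from 12.21, 12.23, 11.57 and 11.98 to 9.30, 9.46, 8.33 and 8.84 (-3.01 ± 0.15, adjusted p = 2.90e-07). Prom1, the gene of the CD133 antigen, fell by 1.69 ± 0.25, and Mllt3, a subunit of the super elongation complex that helps keep stem cells, fell by 0.39 ± 0.074. On the week 4 arrays alone 5 of the stem and early progenitor genes rose.

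Among the listed HOX and TALE homeobox genes, those that rose with Meis1 were all of its own TALE class. Of these 27 genes 6 rose and 0 fell (22.2% called, against 10.8% of all genes), and the median difference was 0.01. Tgif1 (0.21 ± 0.053) was named after its values were seen. Beside Meis1 itself, Pbx4 went from 8.18, 8.16, 8.18 and 8.22 to 8.70, 8.76, 8.96 and 9.08 (0.69 ± 0.093, adjusted p = 3.97e-04) and Pknox1 from 8.63, 8.65, 8.24 and 8.01 to 9.41, 9.42, 8.74 and 8.72 (0.69 ± 0.074, adjusted p = 7.28e-05). PBX proteins are the DNA-binding partners of MEIS and HOX proteins, and PKNOX1 competes with MEIS for PBX. Pknox1 was lower at week 4 in both conditions, and within each week the groups lay apart. Pbx3 rose by 0.58 ± 0.11 (adjusted p = 0.00480), and Tgif2 by 0.28 ± 0.077 (adjusted p = 0.0372), a call lost in 11 of 22 other settings. With no week term, and on the week 4 arrays alone, 3 of the HOX and TALE homeobox genes were called. Of 24 genes for RNA-binding proteins and self-renewal 3 rose and 3 fell (25% called, against 10.8% of all genes). Msi2, an RNA-binding protein of stem cells, rose by 0.99 ± 0.12. Bmi1, a Polycomb protein, rose by 0.36 ± 0.099 (call lost in 10 of 22 other settings). Among the fallers Notch1 was at -0.54 ± 0.077. Igf2bp3, an oncofetal RNA-binding protein, was at 0.80 ± 0.087, but at -0.03 with the stricter filter.

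Genes of the late neutrophil stage had the lowest median difference of all 49 lists. Of 27 measured, 20 fell and 1 rose, the median difference was -1.37, and 16 of the 20 fell at least 2-fold. Not every member is confined to neutrophils: Mcpt8 and Hdc are also on the list of mast cell and basophil genes, and neither was called. The mean over the 27 genes was 9.67 to 10.40 on HOXA9+MIY arrays and 8.20 to 8.49 on HOXA9+MEIS1 arrays. In these bulk cultures fewer cells of a type and less RNA per cell cannot be told apart, here and for every cell type list that follows. S100a9, with S100a8 the calcium-binding pair calprotectin, was 10.58, 11.06, 11.81 and 11.64 with the empty vector and 7.44, 7.24, 6.77 and 7.29 with Meis1, and S100a8 was 12.54, 12.74, 13.06 and 12.90 and 9.69, 9.47, 8.72 and 9.42. The empty-vector arrays were higher at week 4 in both genes, and the differences were -4.09 ± 0.45 (adjusted p = 9.62e-05) and -3.48 ± 0.44 (adjusted p = 2.30e-04). Mmp8, the collagenase of neutrophil granules, was 11.14, 11.44, 11.11 and 11.09 and 7.26, 8.07, 7.26 and 8.24 (difference -3.49 ± 0.46, adjusted p = 3.56e-04), with all 14 probe sets lower. Ngp, a secondary granule protein, fell by 3.18 ± 0.39 and Chi3l3, a chitinase-like secreted protein, fell by 3.40 ± 0.34. Stfa2, a stefin that inhibits cysteine proteases and is read by 1 probe set among near-identical relatives, was 9.35, 9.61, 10.59 and 9.80 and 5.29, 5.48, 3.81 and 5.78, at least 12.0-fold lower (adjusted p = 1.29e-04). Retnlg, a resistin-like protein of neutrophils, fell by 2.56 ± 0.25, with differences of -1.82 at week 3 and -3.29 at week 4.

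Genes listed for the primary granules, which form earlier, moved less, although not every member of the list is confined to those granules. Of 14 measured, 5 fell and 0 rose (35.7% called, against 10.8% of all genes), and the median difference was -0.10. Mpo, myeloperoxidase, was 12.75, 12.97, 12.94 and 12.92 in HOXA9+MIY and 10.74, 11.87, 10.36 and 11.51 in HOXA9+MEIS1 (-1.77 ± 0.30, adjusted p = 0.00209). At each week number 2 stood about 1 log2 unit above number 1 among the Meis1 arrays, and all 4 were below the others. Fcnb, a ficolin that binds bacterial sugars, fell by 2.44 ± 0.26 (adjusted p = 7.18e-05). Hp, haptoglobin, which is also on the list of inflammatory cytokines and the acute phase, was at -1.43 ± 0.35, a call lost in 5 of 22 other settings. Ms4a3 and Serpinb1a, the first a marker of granulocyte and monocyte progenitors, differed by only -0.28 ± 0.064 and -0.17 ± 0.044, with overlapping groups. The count of 5 was 3 without the HOXA9+MIY week 4 replicate 1, the HOXA9+MIY week 4 replicate 2 or the HOXA9+MEIS1 week 4 replicate 1 array, and 1 on the week 3 arrays. Bst1, the CD157 surface enzyme of marrow myeloid cells, is on none of these lists and fell from 10.52, 10.43, 10.30 and 10.59 to 6.93, 7.20, 7.55 and 7.45 (-3.18 ± 0.33). Of 8 eosinophil genes 1 was called (12.5%, against 10.8% of all genes), Prg2, the major basic protein. Prg2 fell by 2.02 ± 0.37 and stood at -1.18 on the week 3 arrays alone.

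Of 36 monocyte and macrophage genes measured, 24 fell and 1 rose, the median difference was -0.78, and the mean over the list was 9.17 to 9.29 on HOXA9+MIY arrays and 8.08 to 8.26 on HOXA9+MEIS1 arrays. Csf1r, the receptor for M-CSF, was 10.11, 10.04, 10.40 and 10.34 with the empty vector and 7.17, 7.19, 6.96 and 7.59 with Meis1 (-2.99 ± 0.18, adjusted p = 1.01e-06), with 31 of 31 probe sets lower. Gpnmb, a membrane glycoprotein of macrophage lysosomes, went from 11.64, 11.47, 11.33 and 11.32 to 8.53, 8.44, 8.06 and 8.46 (-3.07 ± 0.15, adjusted p = 2.90e-07). Both genes differed alike at week 3 and week 4. Fn1, fibronectin, fell by 3.06 ± 0.40 over 55 of 55 probe sets, F13a1, the coagulation factor XIII subunit made by monocytes, fell by 2.78 ± 0.24, and Ms4a6d was at least 6.93-fold lower. The integrin alpha M gene Itgam, part of the Mac-1 receptor, fell by 1.06 ± 0.18. Among 30 integrin, selectin and adhesion genes as many rose as fell, 4 each (26.7% called, against 10.8% of all genes). Itgav was up by 0.95 ± 0.081 and the P-selectin gene Selp was at -1.83 ± 0.17.

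Genes for enzymes and lipid carriers of macrophages were read in 3 lists. Of 34 genes for lysosomal proteases, hydrolases and membrane proteins 17 fell and 2 rose (median -0.19). Ctss, cathepsin S, was 10.40, 10.26, 10.12 and 10.46 and 6.63, 6.94, 6.81 and 7.03, the widest gap of the list and without overlap (-3.46 ± 0.18, adjusted p = 3.80e-07). The protease genes Lgmn (-1.92 ± 0.19) and Ctsh (-1.75 ± 0.10) fell as well, and Psap, the precursor of the saposins, fell by 0.85 ± 0.068 and Lipa, lysosomal acid lipase, fell by 0.62 ± 0.077. Of 21 genes of macrophage lipid handling 12 fell and 1 rose (median -0.26). Apoc2, the activator of lipoprotein lipase, went from 12.44, 12.09, 12.12 and 12.23 to 9.35, 8.83, 8.59 and 9.02 (-3.27 ± 0.14, adjusted p = 1.38e-07), with Lpl, that lipase, at -2.41 ± 0.48, the lipoprotein receptor Lrp1 at -2.08 ± 0.16 and Apoe at -1.14 ± 0.084. The member that rose was Vldlr, a lipoprotein receptor, from 7.92, 8.18, 8.48 and 8.72 to 9.56, 9.47, 10.09 and 10.17 (1.49 ± 0.15, adjusted p = 4.55e-05). Of 26 genes of the phagocyte oxidase and of oxidative stress 8 fell and 1 rose. Cybb, the catalytic subunit of the oxidase, was 12.23, 12.12, 12.19 and 12.22 in HOXA9+MIY and 9.51, 9.27, 8.94 and 9.57 in HOXA9+MEIS1 (-2.87 ± 0.17, adjusted p = 1.01e-06), while Ncf4, a cytosolic subunit, fell by 0.36 ± 0.065 with overlapping groups. On the week 3 or week 4 arrays alone 10 of the lysosomal proteases, hydrolases and membrane proteins were called lower, 7 or 6 of the macrophage lipid handling genes and 3 or 4 of the phagocyte oxidase and oxidative stress genes.

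Receptors that sense microbes and immune complexes were also read in 3 lists. Of 31 genes for toll-like receptors, adaptors and inflammasomes 17 fell and 1 rose (median -0.33). Cd180, a toll-like receptor relative, went from 10.66, 10.29, 9.39 and 9.44 to 8.41, 7.98, 7.14 and 7.42 (-2.21 ± 0.14, adjusted p = 1.30e-06), and was at -1.40 by the median of the probe sets. The RNA sensor Tlr7 was at least 3.58-fold lower (-0.88 with dim probe sets kept in), Tlr8 fell by 1.67 ± 0.23, the lipoprotein sensor Tlr2 fell by 1.28 ± 0.20 and the inflammasome gene Nlrc4 fell by 1.46 ± 0.15. Of 19 myeloid C-type lectin receptor genes 8 fell and 0 rose. Clec7a, the beta-glucan receptor dectin-1, fell by 2.04 ± 0.21, Clec5a fell by 1.28 ± 0.18, and Clec4n, dectin-2, was at least 6.23-fold lower. Clec4a4, a relative outside that list with near-identical neighbours, was at -2.98 ± 0.27 but at -0.39, without a call, when dim probe sets were kept in. Of 24 genes of Fc receptors, Syk and ITAM signalling 7 fell and 2 rose. The Fc receptor gene Fcgr4 fell (-1.50 ± 0.23), Trem2 fell by 1.71 ± 0.20, the Src-family kinase gene Fgr fell by 1.13 ± 0.16 and the ITAM adaptor gene Tyrobp fell by 0.59 ± 0.091. Syk itself was 10.10, 10.09, 10.39 and 10.31 and 9.99, 10.05, 10.07 and 10.38, overlapping and not called (-0.096 ± 0.075, adjusted p = 0.538).

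Of 36 genes of inflammatory cytokines and the acute phase 14 fell and 2 rose (median -0.40), and 5 fell on the week 3 arrays alone. Saa1, an acute-phase apolipoprotein with 1 probe set and close relatives, was 10.61, 10.27, 11.38 and 11.24 with the empty vector and 6.88, 5.61, 4.46 and 5.54 with Meis1. Of the Meis1 values 3 of 4 lay below the filter level, which makes the fall at least 22.0-fold (adjusted p = 1.54e-04). Saa3 was 9.91, 9.61, 10.89 and 10.80 and 7.26, 6.87, 6.73 and 6.54 (-3.45 ± 0.55, adjusted p = 0.00140). Il1b, interleukin 1 beta, went from 8.50, 8.95, 9.29 and 9.32 to 6.54, 6.94, 6.25 and 6.98 (-2.34 ± 0.39, adjusted p = 0.00166), and Il1a was at least 6.21-fold lower. Arg1, arginase, which alternatively activated macrophages make, was 9.85, 9.80, 11.35 and 11.55 and 7.07, 6.88, 7.51 and 7.66, higher at week 4 in both conditions and lower with Meis1 (difference -3.36 ± 0.39). Of 35 chemokines and chemoattractant receptors 12 fell and 0 rose. The complement receptor genes C3ar1 (-2.85 ± 0.24) and C5ar1 (-1.74 ± 0.18) fell, as did the chemokine genes Ccl6 (-2.32 ± 0.22) and Ccl2 (-1.96 ± 0.29). C5ar1 was at -0.89 with dim probe sets kept in and at -2.97 with the stricter filter, and Ccl2 at -0.84 with the stricter filter.

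Cytokine receptors that fell included both subunits of that for IL6, a factor of the medium. Of 32 measured, 11 fell and 3 rose. The gp130 subunit gene Il6st, through which IL6 signals, was 9.58, 9.73, 8.69 and 8.89 in HOXA9+MIY and 8.09, 8.14, 7.11 and 7.57 in HOXA9+MEIS1 (-1.50 ± 0.21, adjusted p = 4.83e-04). It was lower at week 4 in both conditions, and within each week the groups lay apart. Il6ra, the other IL6 receptor subunit, named after its values were seen, fell from 9.84, 9.78, 9.92 and 9.92 to 8.70, 8.68, 8.66 and 8.96 (-1.12 ± 0.095, adjusted p = 1.38e-05). Il13ra1, a subunit of the IL4 and IL13 receptor, fell by 2.20 ± 0.19, and Il1r2, a decoy receptor for interleukin 1, fell by 1.73 ± 0.30. Transcription factors of myeloid differentiation fell in 13 of 34 and rose in 2 (median -0.23). Id2, an inhibitor of helix-loop-helix factors, was 11.15, 11.18, 11.55 and 11.59 and 9.41, 9.23, 10.23 and 10.69 (-1.48 ± 0.18, adjusted p = 1.81e-04). The monocyte factor gene Klf4 fell by 1.45 ± 0.22 (-0.31 with the stricter filter, still called), Irf5 fell by 0.94 ± 0.12, Maf fell by 0.93 ± 0.13 and Trps1 fell by 1.10 ± 0.23. Irf8, which directs cells to the monocyte line, was named after its values were seen and fell from 11.08, 10.84, 11.16 and 11.35 to 9.98, 9.71, 10.47 and 10.68 (-0.90 ± 0.12, adjusted p = 3.23e-04). On week 3 or week 4 arrays alone 7 or 8 of the myeloid differentiation transcription factors were called lower. On the week 4 arrays alone 7 of the cytokine and growth factor receptors and 9 of the toll-like receptors, adaptors and inflammasome genes were.

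A few genes went against the direction of their lists, and they were named after their values were seen. Emr1, which encodes a surface antigen of macrophages, was the riser among the monocyte and macrophage genes, from 10.88, 10.88, 11.12 and 11.25 with the empty vector to 11.92, 11.78, 12.39 and 12.30 with Meis1 (1.07 ± 0.094, adjusted p = 1.83e-05). Slpi, an inhibitor of neutrophil proteases, was the riser among the late neutrophil genes (0.84 ± 0.096, adjusted p = 1.21e-04). In both genes every Meis1 array was above every empty-vector array. The inflammatory list held 2 risers, the hepatocyte growth factor gene Hgf, from 8.79, 8.89, 8.94 and 9.04 to 10.20, 10.17, 10.51 and 10.44 (1.41 ± 0.15, adjusted p = 6.05e-05), and Ptgs2, inducible cyclooxygenase (0.98 ± 0.19, adjusted p = 0.00453). The other risers were smaller: the glycosidase genes Glb1 (0.29 ± 0.072) and Gla (0.40 ± 0.089), Irak3 (0.23 ± 0.056), a brake on toll-like receptor signalling, Sod1 (0.21 ± 0.044), the kinase gene Btk (0.26 ± 0.072), the adaptor gene Lat2 (0.59 ± 0.071), Etv3 (0.58 ± 0.11), Nfe2 (0.19 ± 0.055), and the TGF-beta receptor genes Tgfbr1 (0.38 ± 0.088) and Tgfbr2 (0.50 ± 0.084). Nfe2 lost its call in 16 of 22 other settings. Without single arrays 1 or 2 of the lysosomal proteases, hydrolases and membrane proteins, of the Fc receptor, Syk and ITAM signalling genes and of the myeloid differentiation transcription factors rose, and 0 of the toll-like receptors, adaptors and inflammasome genes without HOXA9+MIY week 4 replicate 2 or HOXA9+MEIS1 week 4 replicate 2.

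**Figure D3:**
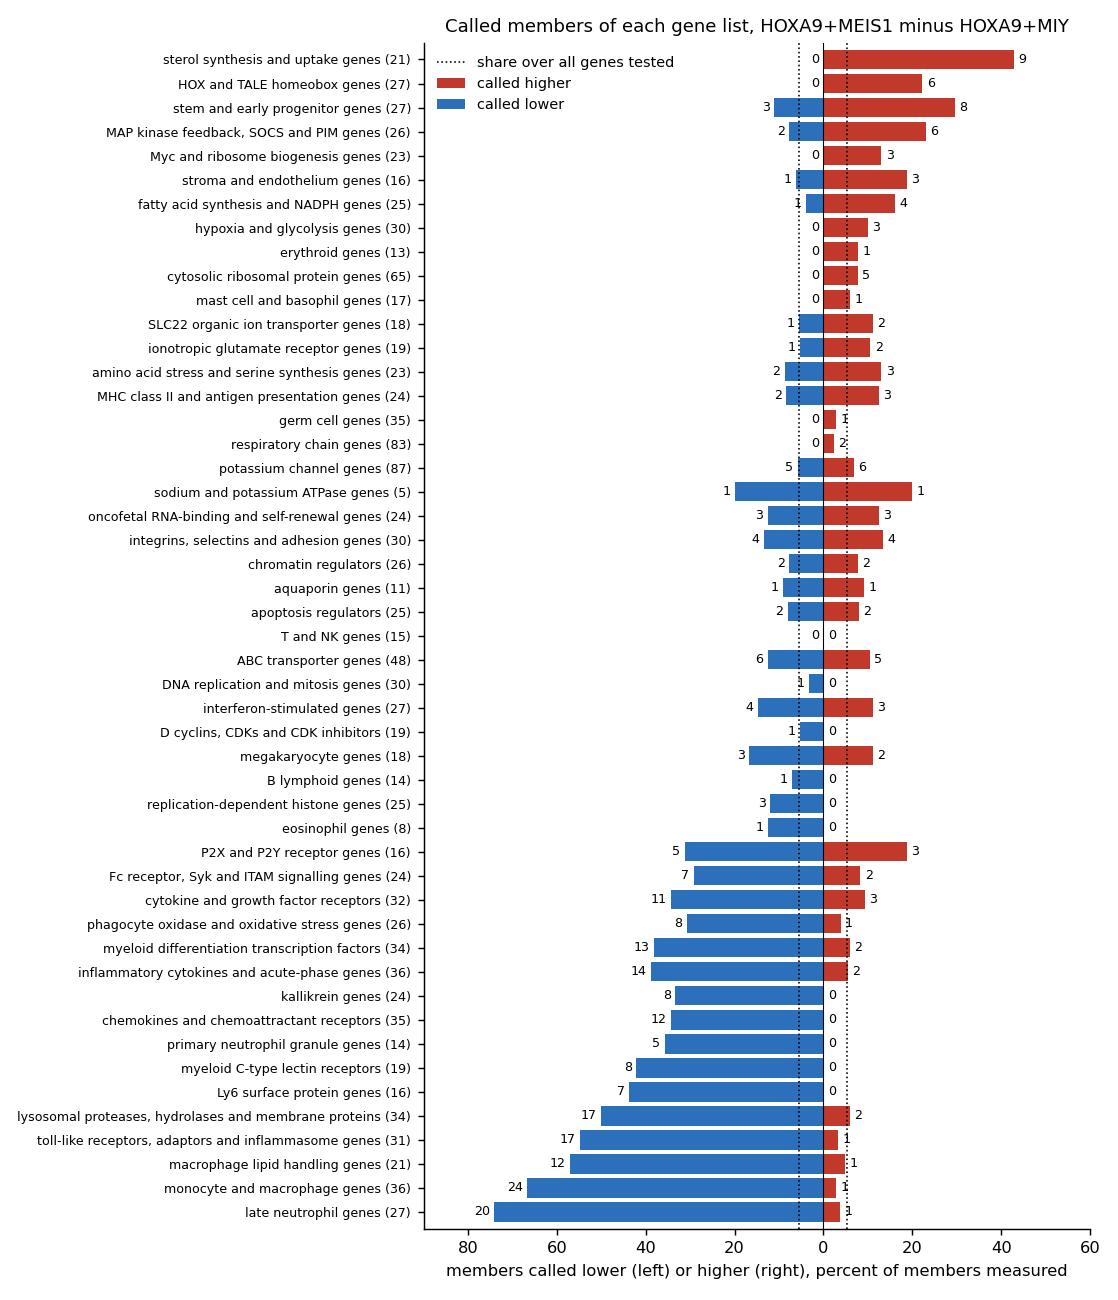
Share of each list's measured members (number in parentheses) called higher (red, to the right) or lower (blue, to the left) in HOXA9+MEIS1 against HOXA9+MIY, in percent, with the number called at the end of each bar and dotted lines at the shares over all genes tested, 5.29% and 5.55%. Late neutrophil genes (20 of 27 lower) lie at the bottom and sterol synthesis and uptake genes (9 of 21 higher) at the top.

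The kallikrein and Ly6 families hold near-identical members that cannot be fully told apart by probe. Of 24 kallikrein genes 8 fell and 0 rose (median over the list -0.13), all 5 named ones from the Klk1b cluster. Klk1b1 was 10.19, 9.87, 10.37 and 10.33 with the empty vector and 6.83, 6.56, 6.83 and 7.09 with Meis1, and Klk1b11 was 11.65, 11.30, 11.75 and 11.70 and 8.03, 7.73, 8.59 and 8.68. The conditions were far apart at both weeks in either gene, with differences of -3.37 ± 0.22 (adjusted p = 2.03e-06) and -3.34 ± 0.21 (adjusted p = 1.18e-06). Klk1b9 was at -3.08 ± 0.25 and Klk1b24 at -2.90 ± 0.18, but with dim probe sets kept in these were -1.49 and -0.22, the latter not called, and Klk1b27 was at -2.16 ± 0.22. Of 16 Ly6 surface protein genes 7 fell and 0 rose (median -0.08), with Ly6a, Ly6f (-1.93 ± 0.22) and Ly6c1 (-1.63 ± 0.13) lower in all probe sets. Without the HOXA9+MIY week 3 replicate 2 or the HOXA9+MEIS1 week 4 replicate 2 array 4 of the Ly6 surface protein genes were called. Of 48 ABC transporter genes 5 rose and 6 fell (22.9% called, against 10.8% of all genes). Abcb1a, a drug efflux pump, went from 7.26, 7.28, 6.99 and 7.03 to 9.03, 9.17, 8.44 and 8.43 (1.63 ± 0.25, adjusted p = 8.91e-04), whereas Abcg3 (-2.04 ± 0.20) and the cholesterol exporter Abca1 (-1.09 ± 0.17) fell. The 5 risers among the ABC transporter genes were 3 on leaving out any single array other than HOXA9+MIY and HOXA9+MEIS1 week 4 replicate 1.

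Of 21 sterol synthesis and uptake genes 9 rose and 0 fell, with a median difference of 0.24. Cyp51, lanosterol demethylase, was 9.90, 9.99, 9.07 and 9.06 with the empty vector and 10.46, 10.41, 9.77 and 9.89 with Meis1 (0.63 ± 0.088, adjusted p = 5.18e-04). Both conditions were lower at week 4, and the Meis1 pair was the higher at each week. Lss (0.48 ± 0.094), Idi1 (0.40 ± 0.071) and Fdft1 (0.39 ± 0.088), enzymes of the pathway, and Insig1 (0.30 ± 0.064), which holds its regulators in the endoplasmic reticulum, moved likewise. With no week term 0 of the sterol synthesis and uptake genes were called, on the week 3 arrays alone 1 and on the week 4 arrays alone 5. Of 25 genes of fatty acid synthesis and NADPH 4 rose and 1 fell (20% called, against 10.8% of all genes). Elovl6, a fatty acid elongase, rose by 0.53 ± 0.082, Scd1, a desaturase, by 0.48 ± 0.089 and the mitochondrial malic enzyme gene Me2 by 0.32 ± 0.069, while Pgd of the pentose phosphate pathway fell by 0.48 ± 0.092.

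In several lists few members were called, beside the 10.8% of all genes. Of 30 genes of DNA replication and mitosis 1 was called, Tk1 (-0.43 ± 0.12), and of 19 D cyclins, CDKs and CDK inhibitors 1, Ccnd3 (-0.18 ± 0.051). Both were small and lost in 11 and 16 of 22 other settings. Of 83 respiratory chain genes 2 rose, Uqcrc1 (0.21 ± 0.053) and Uqcrc2 (0.17 ± 0.030), and 1 without HOXA9+MIY week 3 replicate 1, HOXA9+MIY week 4 replicate 2 or HOXA9+MEIS1 week 3 replicate 1. Of 65 cytosolic ribosomal protein genes 5 rose, from Rpl3 at 0.091 ± 0.026 to Rpl22 at 0.23 ± 0.059. Without HOXA9+MIY week 3 replicate 1, either week 4 array of HOXA9+MIY or HOXA9+MEIS1 week 4 replicate 1 there were 0 called among the cytosolic ribosomal protein genes, and 1 to 3 on leaving out another single HOXA9+MEIS1 array. Of 23 Myc and ribosome biogenesis genes 3 rose, with Odc1, which starts the making of polyamines, at 0.61 ± 0.097; 1 of the Myc and ribosome biogenesis genes was called without the HOXA9+MIY week 3 replicate 1, HOXA9+MIY week 4 replicate 2 or HOXA9+MEIS1 week 4 replicate 2 array. Of 25 apoptosis regulators 4 were called (16.0%), 2 in each direction. The survival gene Bcl2 rose by 0.83 ± 0.19 (adjusted p = 0.0130) and Bok, a relative that promotes cell death, by 0.39 ± 0.077. The caspase gene Casp6 fell by 0.52 ± 0.086 (adjusted p = 0.00169) and Bmf, which also promotes cell death, fell by 0.31 ± 0.082, a call lost in 8 of 22 other settings. Without HOXA9+MIY week 3 replicate 1, HOXA9+MIY week 4 replicate 1 or HOXA9+MEIS1 week 4 replicate 1, 1 of the apoptosis regulators fell, and without HOXA9+MEIS1 week 4 replicate 2, 1 rose and 1 fell. On the week 4 arrays alone 0 of the apoptosis regulators were called. Of 26 chromatin regulators 2 rose and 2 fell (15.4%), and on leaving out single arrays 1 or 2 did in each direction. Tet1, a dioxygenase of methylcytosine, rose by 0.82 ± 0.12 (0.47 with the stricter filter) and Bmi1 was the other riser. The histone deacetylase gene Hdac4 fell by 0.44 ± 0.083 and Tet2, a relative of Tet1, fell by 0.28 ± 0.080, a call lost in 15 of 22 other settings.

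Among markers of other lineages 1 of 14 B lymphoid genes (7.14%), 1 of 17 mast cell and basophil genes (Gata2; 5.88%), 1 of 13 erythroid genes (7.69%) and 5 of 18 megakaryocyte genes (27.8%) were called, beside 10.8% of all genes. The B lymphoid member was Cd79b (-0.62 ± 0.16), and 0 of the B lymphoid genes were called on leaving out any single week 3 array. On leaving out any single array other than HOXA9+MIY week 4 replicate 1, 3 or 4 of the megakaryocyte genes were called. The erythroid member was the haemoglobin gene Hbb-b1, of a family alike in sequence, at 1.54 ± 0.31 (adjusted p = 0.00591; 0.86 with dim probe sets kept in). Of the megakaryocyte genes 2 rose, the thrombin receptor gene F2r (1.47 ± 0.29) and Nfe2 (0.19 ± 0.055), and 3 fell, the P-selectin gene Selp (-1.83 ± 0.17), the platelet factor 4 gene Pf4 (-0.69 ± 0.13) and Vwf, with a median of -0.07 over the list. The call of Nfe2 was lost in 16 and that of Vwf in 12 of 22 other settings. Of 16 stroma and endothelium genes 3 rose (Thy1, Pdgfrb and Pecam1) and 1 fell (Vwf, -0.23 ± 0.059), and 0 of the stroma and endothelium genes fell on leaving out any single array other than HOXA9+MIY week 3 replicate 2 and HOXA9+MEIS1 week 4 replicate 1. Pdgfrb, a platelet-derived growth factor receptor of mesenchymal cells, went from 7.25, 7.28, 7.04 and 7.24 to 9.00, 9.02, 8.80 and 8.83 (1.71 ± 0.17, adjusted p = 3.88e-05), with Pecam1, also on leukocytes, at 0.49 ± 0.046. The mean over the 16 genes was 7.93 to 8.01 on HOXA9+MIY arrays and 8.09 to 8.18 on HOXA9+MEIS1 arrays. The part of such cells in the result was not tested. Of 24 genes of MHC class II and antigen presentation 3 rose and 2 fell (20.8% called, against 10.8% of all genes), with a median of 0.04. The risers were H2-Oa (0.51 ± 0.10) and H2-DMa (0.30 ± 0.078), which act in peptide loading of class II, and the class I gene H2-K1 (0.18 ± 0.050). The costimulator gene Cd80 fell from 9.44, 9.38, 8.96 and 8.99 to 7.50, 7.28, 7.11 and 7.32 (-1.89 ± 0.14, adjusted p = 5.99e-06) and Cd74, the invariant chain of class II, fell by 1.20 ± 0.30, a call lost in 9 of 22 other settings. Without HOXA9+MIY week 4 replicate 1, HOXA9+MEIS1 week 3 replicate 1 or HOXA9+MEIS1 week 4 replicate 1, 1 of the MHC class II and antigen presentation genes rose and 1 fell, and 2 rose and 1 fell without replicate 2 of week 4 of either condition. Of 27 interferon-stimulated genes 3 rose and 4 fell (25.9% called, against 10.8% of all genes). The nucleic acid sensor gene Zbp1 rose by 0.85 ± 0.17 and Rsad2 by 0.66 ± 0.19, the latter a call lost in 14 of 22 other settings. Ifit2 was at least 1.63-fold lower, Oas1a fell by 0.68 ± 0.13 and Oasl2 fell by 0.65 ± 0.10. Without HOXA9+MIY week 4 replicate 1, HOXA9+MEIS1 week 3 replicate 1 or HOXA9+MEIS1 week 4 replicate 2, 1 of the interferon-stimulated genes rose, and with no week term 0 did.

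The differences were also read at each week. On the week 3 arrays alone 919 genes were called, of which 97.5% had the same sign on the week 4 arrays and 51.9% were called there. On the week 4 arrays alone 855 were called, with 95.8% of the same sign at week 3 and 55.8% called there. Of all genes 62.3% had the same sign at both weeks. Among those changed at least 2-fold, 296 at week 3 and 329 at week 4, 99.7% and 98.5% had the same sign at the other week and 82.1% and 80.9% were called there. All 352 genes called at least 2-fold over both weeks had the same sign at each. They were chosen on the arrays of both weeks, so this is a description. In the test of whether the difference depends on the week 0 of 20711 genes were called (0%) with limma, 1343 had an unadjusted p under 0.05, and 29 were called when HOXA9+MIY and HOXA9+MEIS1 were fitted without HOXA9+MDHD. The genes with the smallest p were Klf4 (differences -2.09 at week 3 and -0.80 at week 4), Retnlg, Nfil3 (-0.35 and 0.36), Atf4 (-0.087 and 0.48) and the endothelin receptor gene Ednrb (-2.40 and -0.64), each with an adjusted p of 0.119 or above. Nfil3, a leucine zipper factor, was 9.38, 9.38, 10.37 and 10.41 with the empty vector and 9.07, 8.98, 10.75 and 10.74 with Meis1, so that the Meis1 arrays lay below at week 3 and above at week 4.

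**Figure D4:**
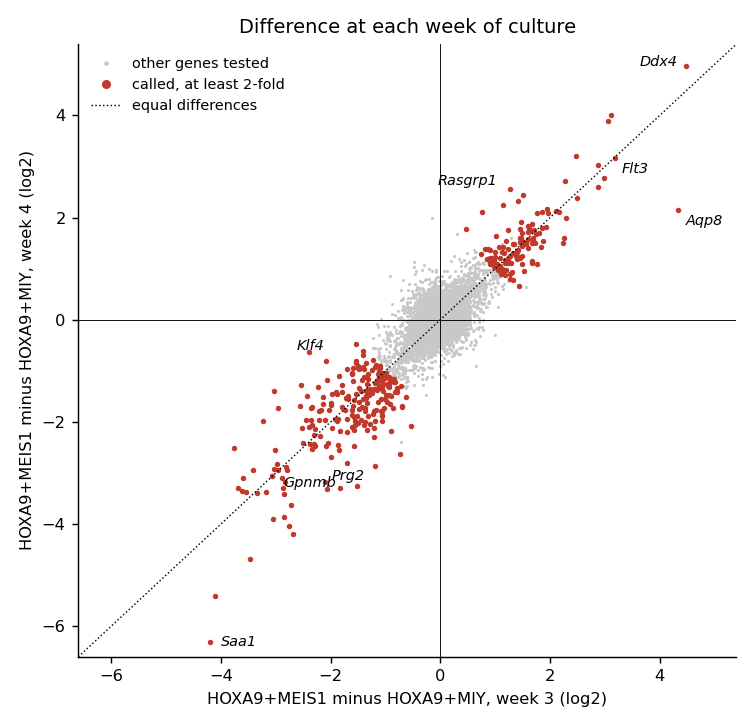
HOXA9+MEIS1 minus HOXA9+MIY (log2) on the week 3 arrays (horizontal axis) and on the week 4 arrays (vertical axis), 1 point per gene, with the 352 genes called and changed at least 2-fold in red, the other genes in grey and a dotted line where both differences are equal. All red points, which were chosen on the arrays of both weeks, have the same sign on both axes. Aqp8 and Klf4 differ more at week 3 and Saa1 and Prg2 more at week 4.

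Meis1 without its homeodomain gives values to set beside those of the full-length form, with the 4 HOXA9+MIY arrays as the control of both. The 4 HOXA9+MDHD arrays did not lie alike. Ddx4 was 9.94, 9.27, 8.90 and 6.55 on them beside a HOXA9+MIY mean of 7.05, Bst1 was 8.33, 8.34, 8.62 and 10.46 beside 10.46 and C3ar1 was 9.70, 9.90, 9.81 and 11.10 beside 10.84, so that week 4 replicate 2 stood at or past the empty-vector mean in these genes and the other 3 between the means of HOXA9+MIY and HOXA9+MEIS1. On a scale from 0 at the HOXA9+MIY mean to 1 at the HOXA9+MEIS1 mean, the median over the 352 genes called at least 2-fold was 0.175 for that array and 0.423 to 0.514 for the others. The 352 genes were chosen on the HOXA9+MEIS1 and HOXA9+MIY arrays, so these positions are a description. The Meis1 value of HOXA9+MDHD week 4 replicate 2 was 9.30, beside 9.12 to 9.75 on the other 3. The cause was not tested, and leaving the array out was chosen after seeing the data.

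Against HOXA9+MIY, 396 genes were called with HOXA9+MDHD (1.91%), and 990 (4.78%) without HOXA9+MDHD week 4 replicate 2. Without another single HOXA9+MDHD array that count was 188 to 254, without a HOXA9+MIY array 140 to 205 and without a HOXA9+MEIS1 array 301 to 357. Between HOXA9+MEIS1 and HOXA9+MDHD 902 genes were called (4.36%), and 884 without that array. Of the 352 genes called at least 2-fold with full-length Meis1, 138 were called between HOXA9+MDHD and HOXA9+MIY and 228 between both Meis1 forms, and 220 and 211 without that array. These 352 were chosen on the same HOXA9+MEIS1 and HOXA9+MIY arrays, so these counts, beside 1.91% and 4.36% of all genes, are a description. The calls of full-length Meis1 against HOXA9+MIY numbered 2477 without that array, with 205 of the 208 named genes still called. Flt3 was 7.85, 7.48, 7.74 and 6.78 in HOXA9+MDHD, a difference of 0.67 ± 0.17 from HOXA9+MIY (adjusted p = 0.0757), and HOXA9+MEIS1 stood 2.50 above it (adjusted p = 6.92e-06). Without HOXA9+MDHD week 4 replicate 2 the difference of Flt3 from HOXA9+MIY was 0.89 ± 0.10 and called (adjusted p = 0.000582 in limma). That of Ddx4 was 1.62 ± 0.43 over all arrays (adjusted p = 0.0860) and 2.23 ± 0.16 without that array (adjusted p = 2.65e-05 in limma). In Ddx4 full-length minus shortened was called in both, at 3.11 and 2.50 ± 0.16. Neto2, Aqp8 and Il12rb2 were at 0.068 ± 0.23, 0.22 ± 0.35 and 0.22 ± 0.11 with the shortened form, not called, and each was higher with the full-length form (adjusted p = 5.21e-06, 3.65e-04 and 3.14e-06). Slc16a12, Cd34, Angpt1, Abcb1a and Hbb-b1 were also called with the shortened form: the differences of HOXA9+MDHD from HOXA9+MIY were 2.40 ± 0.21, 1.15 ± 0.18, 1.34 ± 0.21, 1.60 ± 0.25 and 1.54 ± 0.31. Full-length minus shortened was -0.28 for Slc16a12, 0.089 for Cd34, 0.25 for Angpt1, 0.027 for Abcb1a and 0.00080 for Hbb-b1, none called. Without HOXA9+MDHD week 4 replicate 2 these were -0.44, -0.060, -0.029, -0.29 and -0.36 in that order, again none called. Among the falls, Gpnmb was at -0.26 ± 0.15 with the shortened form (not called) beside -3.07 ± 0.15 with the full-length one, Csf1r at -0.91 ± 0.18 and Ctss at -1.08 ± 0.18, and all 3 were lower with the full-length form (adjusted p = 1.44e-06, 4.61e-05 and 1.81e-05). Clec5a and Itgam were at 0.00080 ± 0.18 and -0.13 ± 0.18 with the shortened form, Saa1 at -0.70 ± 0.62 and Prg2 at -2.51 ± 0.37, of which Prg2 was called. Of the late neutrophil genes 9 of 27 and of the monocyte and macrophage genes 7 of 36 were called lower with the shortened form, with medians of -0.82 and -0.25. Without HOXA9+MDHD week 4 replicate 2 these counts were 17 and 16, with medians of -0.91 and -0.36. Without another single HOXA9+MDHD array they were 5 to 7 of the late neutrophil genes and 1 to 3 of the monocyte and macrophage genes.

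**Figure D5:**
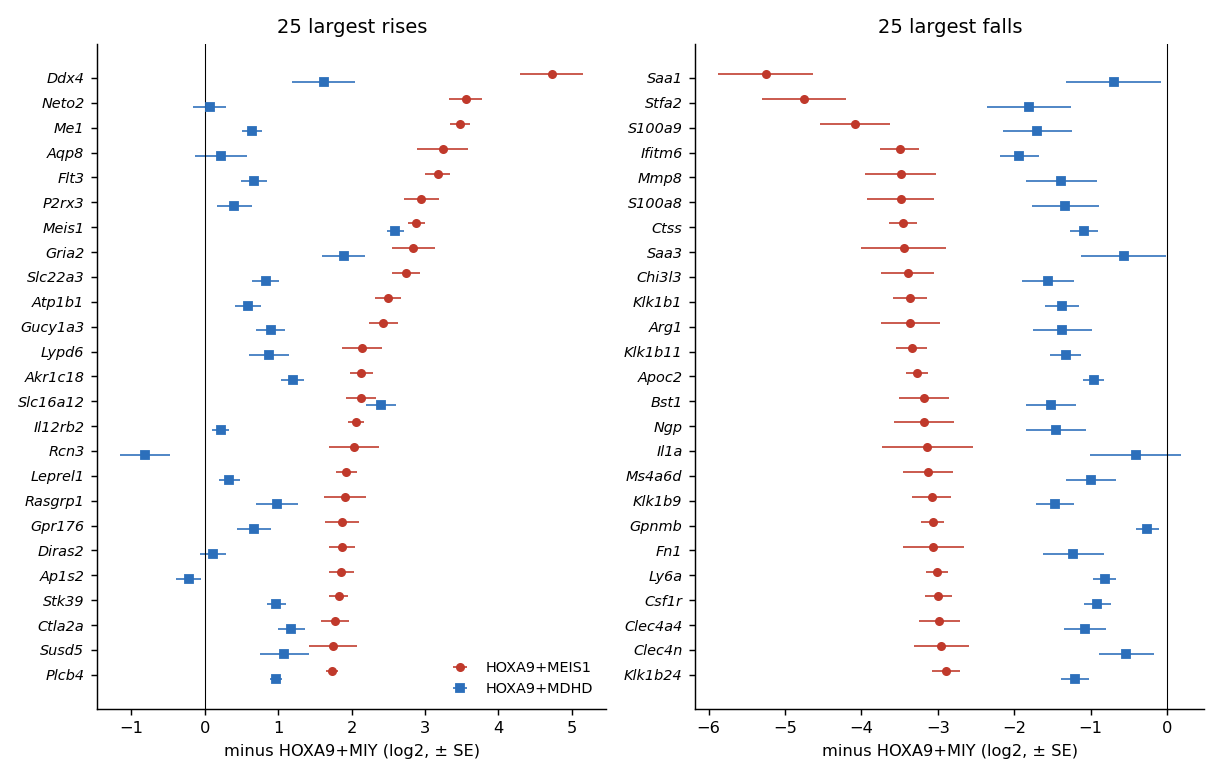
The 25 largest rises (left) and 25 largest falls (right) with full-length Meis1, listed by gene, with the log2 difference from HOXA9+MIY ± SE on the horizontal axis for HOXA9+MEIS1 (red circles) and HOXA9+MDHD (blue squares); both share the 4 HOXA9+MIY arrays, and all 4 HOXA9+MDHD arrays are in. The HOXA9+MDHD value lies nearer to 0 in all 50 genes but Slc16a12, whose values are 2.13 ± 0.21 and 2.40 ± 0.21. The genes were chosen for their HOXA9+MEIS1 differences, so this is a description. Among the rises, Rcn3 (-0.81) and Ap1s2 (-0.22) lie below 0 with HOXA9+MDHD.

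The several probe sets of a gene give a further reading of the same arrays. Only probe sets above the filter level are counted. The filter took in the arrays on which a gene is high, so agreement among its probe sets is a description. All probe sets pointed the way of the gene in Me1 (23), Lrp1 (93), Fn1 (55), Itgav (47), Csf1r (31) and Pdgfrb (28). Of the 19 of Chi3l3 17 were lower, and of the 12 of Igf2bp3 8 were higher. Saa1 and Stfa2 rest on 1 probe set each.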

How the data were processed

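Per the labels, 12 arrays (Affymetrix mouse exon array) measured RNA of HOXA9+MIY, HOXA9+MEIS1 and HOXA9+MDHD cells, 4 each. The authors deposited log2 values per probe set; the submitters' processing notes name RMA and Affymetrix Expression Console, and no build or version is given in the sources used here. Intensity of single probes was not used. Of 1256831 probe sets, 318760 name 1 gene symbol (6684 several, 931387 none), and 233798 with a mean above 6.2592 gave 20711 genes (median 8 probe sets, 2245 genes with 1). Array medians lay at 6.26 to 6.30, and precision is limited by how many arrays there are.

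Gene values (median polish) were fitted with limma 3.58.1 (R 4.3.3; trend, residual degrees of freedom 8) on condition and week over all 12 arrays, and p-values were Benjamini-Hochberg adjusted over all genes. The script was tested on simulated data. Named genes are the 25 largest rises and 25 largest falls that were called and had 1 direction in each of the 4 array pairs of like week and number, without small RNAs and gene models that have no given name; up to 5 called members of each of 49 lists by size of change (2 where none was called); the 5 with the smallest p for a difference by week; and Hoxa9, Meis1, Syk and Flt3; others are marked in the text. Members and lists were chosen with earlier results of these data known. Names and promoters came from RefSeq (GRCm38.p6). Alternatives tried were filters, gene summaries, scaling, model terms, weeks apart, and each array left out, for HOXA9+MDHD arrays added after seeing the data.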

Additional observations from a re-analysis of the deposited data

Results flagged for a closer look

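In 434 groups of 4 arrays (217 named genes in both conditions), 10 single arrays lay far from the other 3 of their group by Dixon's criterion, which chance alone gives in about 1 in 20 groups. In HOXA9+MEIS1, replicate 1 of week 3 stood apart in Abca1 (7.34) and Cd74 (6.62), and replicate 2 of week 3 in Cebpb (9.05). Replicate 2 of week 4 of HOXA9+MEIS1 stood apart in Il1a (6.41), Il6ra (8.96) and Tlr7 (6.77). In HOXA9+MIY, replicate 2 of week 3 stood apart in Mmp8 (11.44), replicate 1 of week 4 in Aqp9 (8.50), and replicate 2 of week 4 in Casp6 (11.38) and Pbx3 (8.71). In the 217 groups of HOXA9+MDHD 17 arrays did. Replicate 2 of week 4 of HOXA9+MDHD stood apart in 8 genes, Angpt1 (7.90), Bst1 (10.46), C3ar1 (11.10), C5ar1 (8.12), F11r (8.79), F13a1 (12.13), Gpr176 (6.41) and Mmp8 (11.70). Replicate 1 of week 4 did in 6, Erg (10.31), Itgav (10.56), Ncr1 (6.52), Rasgrp1 (9.97), Rsad2 (9.69) and Zbp1 (9.86), and replicate 2 of week 3 in 3, Ednrb (7.27), Leprel1 (7.93) and Pecam1 (11.47). All are gene values on the log2 scale.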

How the results depend on the processing

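Of 208 named genes called, 103 kept their call and direction in all 22 other settings and 167 in all but the settings on weeks; of 117 that were also at least 2-fold, 84 and 112 did. The 2244 calls became 904 without the week in the model, 919 at week 3 alone and 855 at week 4 alone, and 1634 to 1829 without single arrays of either condition; they numbered more with both groups fitted alone (3095, of which 1610 higher), quantile normalization (2684) and cyclic loess (2662). Leaving out single HOXA9+MDHD arrays, added after seeing the data, gave 2231 to 2557. Over all 12 single arrays left out, the 396 calls of HOXA9+MDHD against HOXA9+MIY ran from 140 to 990 and the 902 between both Meis1 forms from 608 to 1032. With the replicate number as a block there were 2041 calls. Correlations of deviations lay between -0.32 and -0.015 for matched numbers and between -0.27 and 0.047 for other numbers. None of 12 exceeded 0.1 in either. The fit itself draws such correlations below 0, so they do not settle whether the numbers pair the arrays. Genes whose difference depended on the week numbered 29 with both groups fitted alone and 1 with the median of the probe sets. Median centring made 53.5% of the calls higher, against 48.8% as reported; over the other settings this share was 42.6% to 53.1%. Signs turned for Igf2bp3 under the stricter filter (-0.0305), for Ncr1 (-0.0546) and Atf4 (-0.0873) on the week 3 arrays, and for Nfil3 with the mean of the probe sets (-0.0038), with cyclic loess (-0.0106), on the week 3 arrays (-0.35, adjusted p = 0.0463 in limma) and without single arrays (-0.0924 to 0.0885); the cause was not tested. With no week term 0 of the sterol synthesis and uptake genes, 2 of the primary neutrophil granule genes, 4 of the phagocyte oxidase and oxidative stress genes and 4 of the Ly6 surface protein genes were called. Of genes called at least 2-fold, 19 had a group mean below the filter level, and their folds are bounds.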
